A study of Danio rerio with 30 samples.

Results

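Amacrine and horizontal cells are the inhibitory interneurons of the retina. They were followed through 10 genes: the transcription factor genes foxn4, onecut1, ptf1a, prox1a, lhx1a and tfap2b, the GABA synthesis genes gad1b and gad2, and the calretinin genes calb2a and calb2b. The genes were chosen by name, and each name matched 1 of the 27731 genes of the deposited table. Expression was measured by RNA sequencing of tissue dissected from the zebrafish (Danio rerio) retina. The optic fissure region (OF), where the ventral optic cup closes, was compared with the dorsal retina (DR), which served as control, at 32, 48 and 56 hours post-fertilisation (hpf), before, during and after fusion. Each of the 6 groups (OF and DR at 32, 48 and 56 hpf) held 5 biological replicates, 30 libraries in all. No genotype, strain or treatment is given in the labels, and ventral retina outside the fissure was not among the groups, so a difference between OF and DR cannot tell the fissure from ventral position.

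Horizontal cells contact photoreceptors in the outer retina, and amacrine cells contact bipolar and ganglion cells in the inner retina; both types largely use GABA or glycine as transmitter. In the mouse, the forkhead factor Foxn4 acts in dividing progenitors and turns on Ptf1a, a basic helix-loop-helix factor that commits cells to the amacrine and horizontal fates. Onecut1, Prox1 and Lhx1 then act in the horizontal lineage, AP-2 factors such as Tfap2b in both lineages, and the glutamate decarboxylases and calretinins are made by cells that have left the cell cycle.

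Depth was 4.49 M to 12.32 M reads in genes per library (median 9.75 M), and 11777 to 25740 genes had a read. The values, called normalised counts here, are read counts that were scaled by 1 size factor per library. In this bulk tissue, fewer cells of a type and less RNA per cell cannot be told apart. At 48 hpf the replicate 5 pair went against its labels: the ventral gene vax1 stood at 18.4 in the library labelled OF and at 767.5 in the library labelled DR, where the other libraries had 702 to 867 in OF and 0.887 to 5.515 in DR. Results that use 48 hpf are therefore also given without that pair where it matters, but the correlations between genes are not. At 32 hpf the replicate 1 pair had reads in few genes, 13854 in OF and 11777 in DR. At 56 hpf DR replicate 1 had the most genes with a read, 25740, at a depth of 5.9 M reads, and was kept.

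The levels of these genes changed mainly between 32 and 48 hpf, and in the same direction in both regions. That interval is longer than the one from 48 to 56 hpf, and rates per hour were not compared. From 32 to 48 hpf, 8 of the 10 genes rose and 2 fell in OF, against 25.6% and 9.61% of the 17360 tested genes that rose and fell there. In DR 8 rose and 1 fell, against 22.1% and 6.39% of tested genes. The median log2 change of the 10 genes was 4.5 in OF and 4.88 in DR (4.51 and 4.88 with genes at 0 set to their lower bound), beside medians of 0.38 and 0.35 over all tested genes. The libraries of 48 and 32 hpf did not overlap for 8 genes that lay higher and 0 that lay lower in OF, against 16.7% and 4.79% of tested genes, and for 8 and 1 in DR, against 14.4% and 4.13%. Without the 48 hpf replicate 5 pair, 9 genes were called in each region, and ptf1a in OF was lost (limma adjusted p 0.0801). The shares of all tested genes in that fit are not given, so this count is a description. Calls are from limma at a Benjamini-Hochberg adjusted p under 0.05, with log2 changes on the scale of normalised count + 1. All 10 genes passed the filter on low values (at least 10 in at least 5 libraries), but gad1b and calb2b reached 10 in 0 of the 10 libraries of 32 hpf and gad2 and calb2a in 1. These 4 passed through their 48 and 56 hpf values, so that the counts are a description of them and no support. The same holds for the adjusted p-values given below for the rises of these 4 genes.

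**Figure D1:**
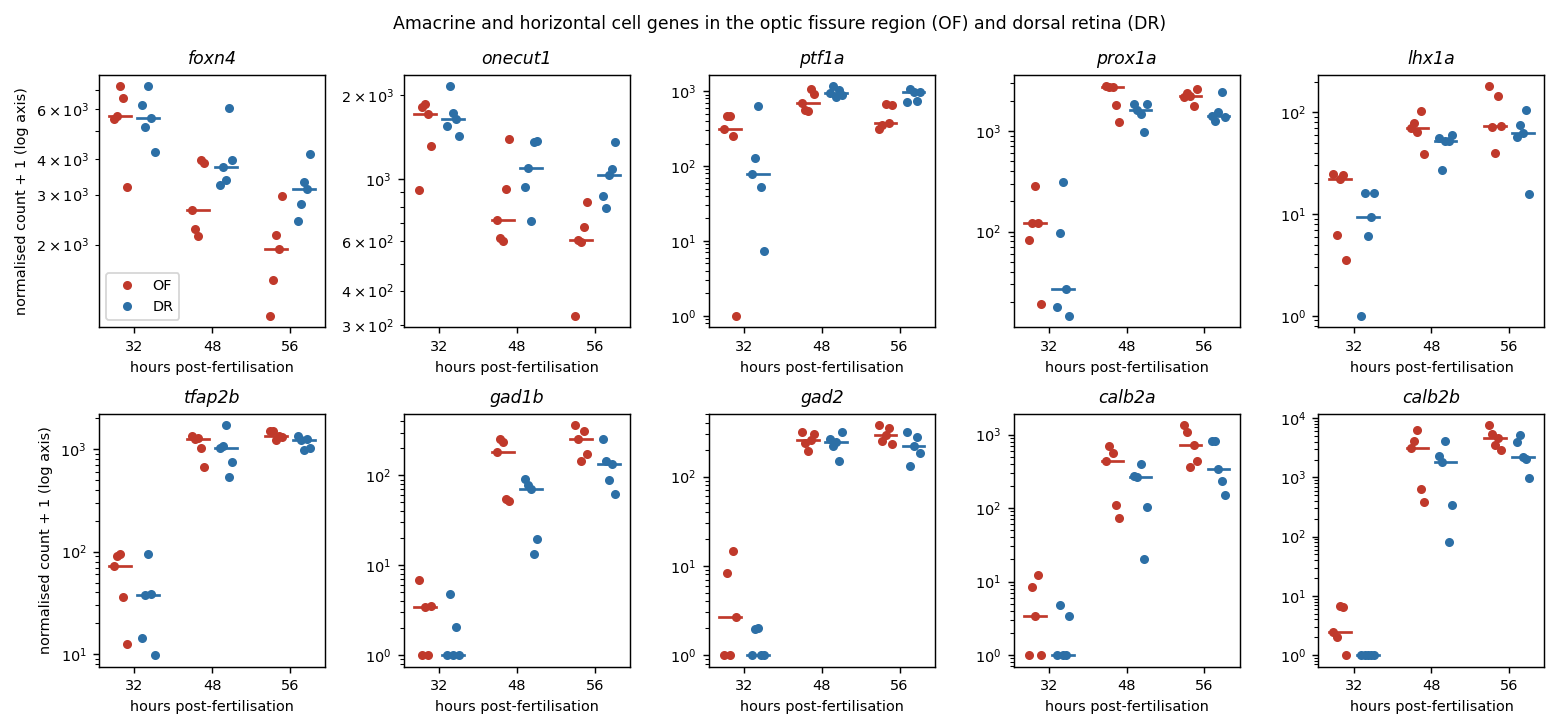
Normalised count + 1 (log axis) of each gene against hours post-fertilisation, with OF libraries in red to the left of DR libraries in blue; each point is 1 library and each line a group median (n = 5). The foxn4 and onecut1 values step down with time, while gad1b, gad2, calb2a and calb2b lie at or near 0 at 32 hpf and far above it at 48 and 56 hpf.

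The progenitor factor gene foxn4 (ENSDARG00000010591) was already high at 32 hpf and fell. Its normalised counts in OF were 5529, 5689, 7224, 6580 and 3194 at 32 hpf, then 2650, 2270, 2147, 3960 and 3876 at 48 hpf, and 1124, 1496, 2164, 1927 and 2968 at 56 hpf. In DR they were 6220, 5181, 7196, 5597 and 4226 at 32 hpf, then 3231, 3739, 3387, 6027 and 3972 at 48 hpf, and 2429, 2785, 3316, 3141 and 4153 at 56 hpf. In both regions every library of 56 hpf lay below every library of 32 hpf, while 48 and 32 hpf overlapped. In OF foxn4 fell by 0.92 on the log2 scale at 48 against 32 hpf (SE 0.24, limma adjusted p 0.00378) and by 1.57 at 56 against 32 hpf (SE 0.24, limma adjusted p 5.1e-06). In DR the change at 48 against 32 hpf was -0.5 (SE 0.24) and did not pass (limma adjusted p 0.128), and at 56 against 32 hpf it fell by 0.85 (SE 0.24, limma adjusted p 0.00704). Under quantile scaling the OF call at 48 hpf and the DR call at 56 hpf were lost, with changes of -0.65 and -0.54 (limma adjusted p 0.0626 and 0.13).

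onecut1 (ENSDARG00000007982), whose mouse counterpart is needed for horizontal cell formation, followed the same course. In OF it stood at 918, 1819, 1866, 1713 and 1315 at 32 hpf, at 716, 617, 602, 922 and 1400 at 48 hpf, and at 324, 608, 595, 674 and 833 at 56 hpf. In DR it stood at 1553, 2161, 1733, 1652 and 1428 at 32 hpf, at 940, 1094, 707, 1365 and 1372 at 48 hpf, and at 874, 787, 1038, 1092 and 1367 at 56 hpf. The libraries of 56 and 32 hpf did not overlap in either region. In OF it fell by 0.87 at 48 against 32 hpf (SE 0.25, limma adjusted p 0.00707) and by 1.35 at 56 against 32 hpf (SE 0.25, limma adjusted p 6.2e-05). In DR it fell by 0.67 at 48 against 32 hpf (SE 0.25, limma adjusted p 0.0447), and by 0.74 at 56 against 32 hpf (SE 0.25, limma adjusted p 0.0214). The first DR call was lost when any of 10 single libraries was left out, with -0.52 (limma adjusted p 0.144) without DR replicate 3 of 48 hpf. The second was lost without DR replicate 1 or 2 of 56 hpf or DR replicate 2 of 32 hpf (limma adjusted p up to 0.0609). Both DR calls were also lost under quantile scaling (limma adjusted p 0.138 and 0.0856).

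ptf1a (ENSDARG00000014479), which commits progenitors to inhibitory fates, was uneven at 32 hpf and high afterwards. In OF its normalised counts were 311, 461, 470, 251 and 0 at 32 hpf, 702, 568, 537, 1058 and 907 at 48 hpf, and 310, 357, 684, 374 and 647 at 56 hpf. In DR they were 76.6, 127, 624, 52.2 and 6.41 at 32 hpf, 940, 1172, 845, 1022 and 895 at 48 hpf, and 716, 1084, 990, 741 and 962 at 56 hpf. In both regions all 48 hpf libraries lay above all 32 hpf libraries, and in OF the 56 hpf libraries overlapped those of both earlier times. In DR ptf1a rose by 3.68 at 48 against 32 hpf (SE 1.06, limma adjusted p 0.00878) and by 3.56 at 56 against 32 hpf (SE 1.06, limma adjusted p 0.00912); with edgeR on the recovered reads the changes were 2.36 and 2.22. In OF the rise at 48 against 32 hpf was 2.71 (SE 1.06, limma adjusted p 0.0456), but the call was lost when any of 21 single libraries was left out, and also with edgeR, DESeq2 or TMM scaling. Without the replicate 5 library of 32 hpf, which had 0 reads, the change was 1.01 (limma adjusted p 0.22). At 56 against 32 hpf the OF change of 2.02 (SE 1.06) did not pass (limma adjusted p 0.128).

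The horizontal lineage factor gene prox1a (ENSDARG00000055158) rose steeply between 32 and 48 hpf, and its 56 hpf libraries overlapped those of 48 hpf in both regions. OF libraries had 81.4, 121, 282, 121 and 18.3 at 32 hpf, 2789, 2750, 2723, 1822 and 1237 at 48 hpf, and 2168, 2360, 2209, 1756 and 2613 at 56 hpf. DR libraries had 16.7, 96.9, 313, 26.1 and 13.6 at 32 hpf, 1850, 1607, 1473, 967 and 1833 at 48 hpf, and 1419, 1256, 1535, 2427 and 1382 at 56 hpf. No library of 48 or 56 hpf came near the highest of 32 hpf. At 48 against 32 hpf prox1a rose by 4.55 in OF (SE 0.58, limma adjusted p 5.5e-07) and by 5.02 in DR (SE 0.58, limma adjusted p 9.6e-08).

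lhx1a (ENSDARG00000014018), a LIM homeobox gene whose mouse counterpart places horizontal cells in their layer, also rose, with wide spread among libraries. OF libraries had 23.7, 5.23, 21.1, 23.1 and 2.5 at 32 hpf, 69.5, 77.4, 62.5, 101 and 38.3 at 48 hpf, and 180, 70.3, 39, 143 and 72.9 at 56 hpf. DR libraries had 0, 15.2, 5.12, 8.35 and 15.2 at 32 hpf, 54.8, 26, 51.3, 51.4 and 58.3 at 48 hpf, and a lowest value of 14.8, a median of 60.9 and a highest of 105 at 56 hpf. At 48 hpf the libraries lay above those of 32 hpf in both regions, and in DR the lowest 56 hpf library fell back among the 32 hpf values. The rise at 48 against 32 hpf was 2.45 in OF (SE 0.67, limma adjusted p 0.00466) and 2.8 in DR (SE 0.67, limma adjusted p 0.00181); under quantile scaling the changes were 1.5 and 1.44, and the DR call was lost.

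tfap2b (ENSDARG00000012667), an AP-2 factor gene of young amacrine and horizontal cells, lay higher in every later library than in any of 32 hpf. In OF it had 71.1, 90, 94.9, 35.1 and 11.7 at 32 hpf, 1346, 1256, 1285, 1033 and 666 at 48 hpf, and 1499, 1500, 1236, 1327 and 1301 at 56 hpf. In DR it had 13.3, 37.1, 93.2, 37.6 and 8.81 at 32 hpf, 1028, 1061, 1704, 537 and 740 at 48 hpf, and 1349, 1224, 984, 1253 and 1034 at 56 hpf. On the log2 scale the change at 48 against 32 hpf was 4.46 in OF (SE 0.47, limma adjusted p 1.8e-08) and 5.04 in DR (SE 0.47, limma adjusted p 2.0e-09). The 56 hpf libraries of OF spanned a narrow range, with a mean of 1373 ± 120.5 (SD, n = 5).

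The GABA synthesis genes were almost silent at 32 hpf. gad1b (ENSDARG00000027419) had 5.92, 0, 2.43, 0 and 2.5 in OF at 32 hpf, then 182, 255, 237, 53.1 and 50.3 at 48 hpf and 360, 253, 143, 310 and 174 at 56 hpf. In DR it had 0, 3.8, 0, 1.04 and 0 at 32 hpf, then 89.9, 77.2, 70.4, 12.4 and 18.4 at 48 hpf and 250, 145, 88.2, 134 and 61.6 at 56 hpf. Every library of 48 and 56 hpf exceeded every library of 32 hpf. At 48 hpf the replicate 4 and 5 libraries of both regions held the lowest gad1b values. The fitted rise at 48 against 32 hpf was 5.69 in OF (SE 0.65, limma adjusted p 9.8e-08) and 4.74 in DR (SE 0.65, limma adjusted p 1.7e-06); such fitted values of genes near 0 depend on the pseudocount, and the DR value was 3.03 with a pseudocount of 5.

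gad2 (ENSDARG00000015537), the second glutamate decarboxylase gene, reached its later level by 48 hpf. OF libraries had 0, 7.32, 0, 13.8 and 1.67 at 32 hpf, 318, 237, 191, 257 and 298 at 48 hpf, and 375, 249, 295, 349 and 229 at 56 hpf. DR libraries had 0, 0.95, 1.02, 0 and 0 at 32 hpf, 263, 221, 241, 149 and 312 at 48 hpf, and 319, 129, 218, 278 and 182 at 56 hpf. Across the 5 DR libraries of 32 hpf gad2 had 2 reads in all, against 1233 reads at 48 hpf. The ratio of the DR means, 48 over 32 hpf, was 600.5 with a 95% counting interval of 166 to 4964. In OF the rise was 6.33 on the log2 scale (SE 0.52, limma adjusted p 2.9e-10).

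The calretinin genes, which encode calcium-binding proteins of amacrine and ganglion cells, rose as well, and calb2b had the highest fitted change of the 10. calb2b (ENSDARG00000036344) had 1.48, 1.05, 5.68, 5.54 and 0 in OF at 32 hpf, 3148, 4078, 6258, 643 and 376 at 48 hpf, and 7563, 5389, 3558, 4532 and 2859 at 56 hpf. In DR it had 0 reads in all 5 libraries at 32 hpf, 2292, 1783, 4058, 79.8 and 345 at 48 hpf, and 3935, 5223, 2173, 2055 and 993 at 56 hpf. With a floor of 3 reads per library, calb2b was at least 399-fold higher in DR at 48 than at 32 hpf, and at least 670.1-fold higher at 56 than at 32 hpf. Without DR replicate 3 of 48 hpf the first bound was 262-fold. In OF the fitted rise at 48 against 32 hpf was 9.26 (SE 0.78, limma adjusted p 4.7e-10), with 15 reads behind the 32 hpf values. At 48 hpf the replicate 4 and 5 libraries of both regions stood well below the other 3.

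calb2a (ENSDARG00000041062) showed the same split among replicates. OF libraries had 0, 7.32, 2.43, 11.1 and 0 at 32 hpf, 433, 690, 564, 109 and 72.6 at 48 hpf, and 1335, 1095, 366, 724 and 441 at 56 hpf. DR libraries had 0, 3.8, 0, 0 and 2.4 at 32 hpf, 272, 266, 397, 19.5 and 102 at 48 hpf, and 817, 806, 342, 231 and 151 at 56 hpf. At 48 against 32 hpf calb2a rose by 6.38 in OF (SE 0.8, limma adjusted p 4.0e-07) and 6.36 in DR (SE 0.8, limma adjusted p 3.8e-07).

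**Figure D2:**
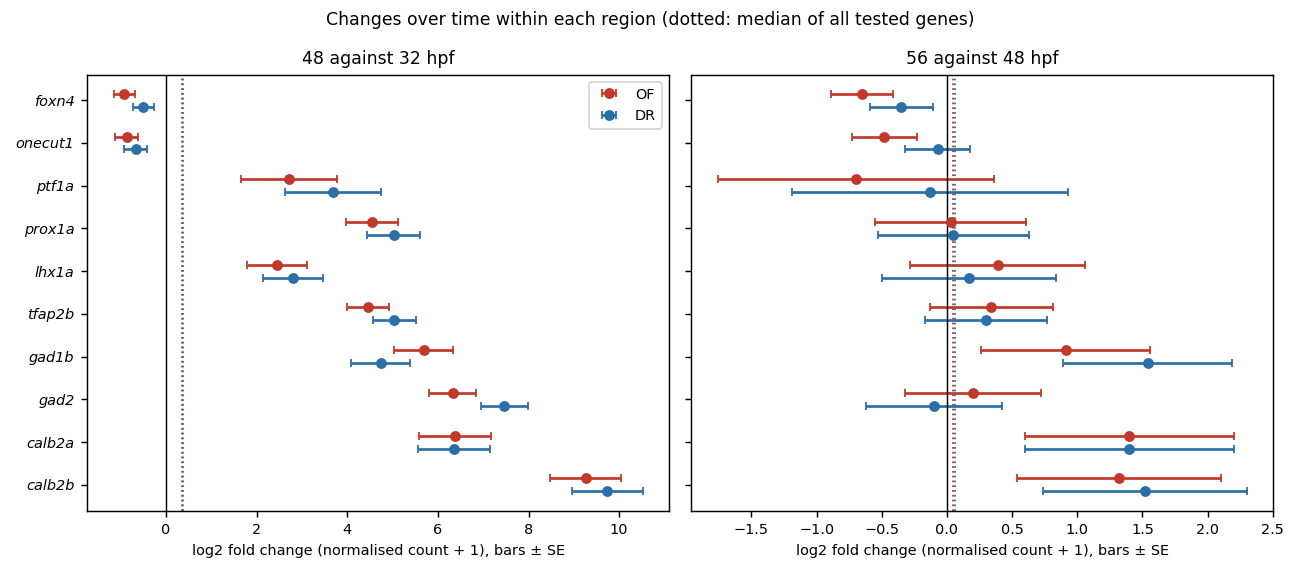
Log2 fold change of each gene (horizontal axis, normalised count + 1) at 48 against 32 hpf and at 56 against 48 hpf, in OF (red) above DR (blue), with bars of ± 1 SE and dotted lines at the median of all tested genes. At 48 against 32 hpf only foxn4 and onecut1 lie left of 0; at 56 against 48 hpf no gene passed the test.

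Between 48 and 56 hpf no gene of the 10 was called in either region, where limma called 0.0173% of tested genes in OF and 0.0115% in DR. An unadjusted p under 0.05 was reached by 1 gene in each region, and edgeR and DESeq2 also called 0. Shares of all tested genes by these other rules are not given, so these counts are a description. The largest differences were those of gad1b in DR (1.54, SE 0.65), calb2b in DR (1.52, SE 0.78), and calb2a, with 1.4 (SE 0.8) in both regions, while foxn4 differed by -0.65 (SE 0.24) in OF. At 56 against 32 hpf, 7 genes rose and 2 fell in OF, against 29.7% and 12.5% of tested genes, and 8 rose and 2 fell in DR, against 26.7% and 9.03%. The libraries of 56 and 32 hpf did not overlap for 7 genes that lay higher and 2 that lay lower in each region, against 22.5% and 7.4% of tested genes in OF and 17.8% and 5.39% in DR. The median log2 change of the 10 was 4.69 in OF and 5.2 in DR, beside 0.42 and 0.46 over all tested genes. Ordered by group mean, prox1a, lhx1a, tfap2b, gad1b, gad2, calb2a and calb2b had a gap free of libraries in 1 place, between the lowest group of the later times and OF at 32 hpf; all other neighbours in their order overlapped. For lhx1a the lowest DR library of 56 hpf, at 14.8, lay below that gap. For foxn4, onecut1 and ptf1a every neighbour in the order overlapped.

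OF and DR were also compared at each time. In the fit without pairing, none of the 10 genes was called for OF against DR: 0 at 32 hpf, 0 at 48 hpf and 0 at 56 hpf, where limma called 1.14%, 0.00576% and 0.253% of tested genes. An unadjusted p under 0.05 was reached by 1, 1 and 2 genes at 32, 48 and 56 hpf. With edgeR 0 were called at each time, and DESeq2 called 1 at 32 hpf (gad2) and 0 at 48 and 56 hpf. Shares of all tested genes by these other rules are not given, so these counts are a description and no result about the 10 genes. The median log2 difference of the 10 genes was 0.82, 0.35 and 0.48 at 32, 48 and 56 hpf (0.7 at 32 hpf with calb2b at its bound), beside 0.06, 0.1 and 0.08 over all tested genes. Without the 2 pairs that stand apart it was 0.29, 0.54 and 0.48, beside 0.02, 0.13 and 0.08 over all tested genes. At 32 hpf gad2 had 24 reads in OF and 2 in DR, a ratio of 11.6 with a counting interval of 2.87 to 101. Of the 24 reads, 15 were in OF replicate 4, and without that library the ratio was 5.69 (1.18 to 54.1).

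Samples with the same replicate number deviated together within a time, so OF and DR were also compared within pairs. At 56 hpf foxn4 was lower in OF in 5 of 5 pairs, with differences of -1.11, -0.9, -0.62, -0.7 and -0.48 on the log2 scale. onecut1 was lower in OF in 5 of 5 pairs, with differences of -1.43, -0.37, -0.8, -0.7 and -0.71, and ptf1a in 5 of 5, with -1.21, -1.6, -0.53, -0.98 and -0.57. Of all tested genes, 6.08% were lower in 5 of 5 pairs at 56 hpf. In contrast, tfap2b, gad1b, gad2, calb2a and calb2b were higher in OF in 5 of 5 pairs, as were 13% of tested genes. Their differences were 0.08 to 0.33, 0.53 to 1.48, 0.23 to 0.94, 0.1 to 1.65 and 0.05 to 1.53, in that order. prox1a was higher in 4 pairs and lhx1a in 3. None of these genes was called for OF against DR at 56 hpf, with or without the pair as a block. ptf1a was the gene whose OF and DR libraries did not overlap at 56 hpf, with 310 to 684 in OF and 716 to 1084 in DR; 0.726% of tested genes lay lower in OF without overlap.

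With the pair as a block, foxn4 and onecut1 were called lower in OF at 56 hpf. In the fit on 13 pairs, which leaves out the 2 pairs that stand apart, foxn4 was lower in OF with a log2 difference of -0.76 (SE 0.11, limma adjusted p 4.2e-04) and onecut1 with one of -0.8 (SE 0.13, limma adjusted p 0.00103), against 2.32% of tested genes called lower. Without the block these differences had the same size and limma adjusted p-values of 0.362 and 0.335. Leaving out each 56 hpf pair of the 13 in turn kept both calls in 5 of 5 fits. The highest limma adjusted p was 0.00436 for foxn4 and 0.00673 for onecut1. Both highest values came from the fit without the replicate 1 pair. The mean of foxn4 at 56 hpf was 1936 ± 702 in OF and 3165 ± 649 in DR, and that of onecut1 was 607 ± 184 in OF and 1032 ± 224 in DR (SD, n = 5 each). For ptf1a, with means of 474.5 ± 177 in OF and 899 ± 162 in DR, the blocked difference of -0.98 (SE 0.46) did not pass (limma adjusted p 0.26).

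**Figure D3:**
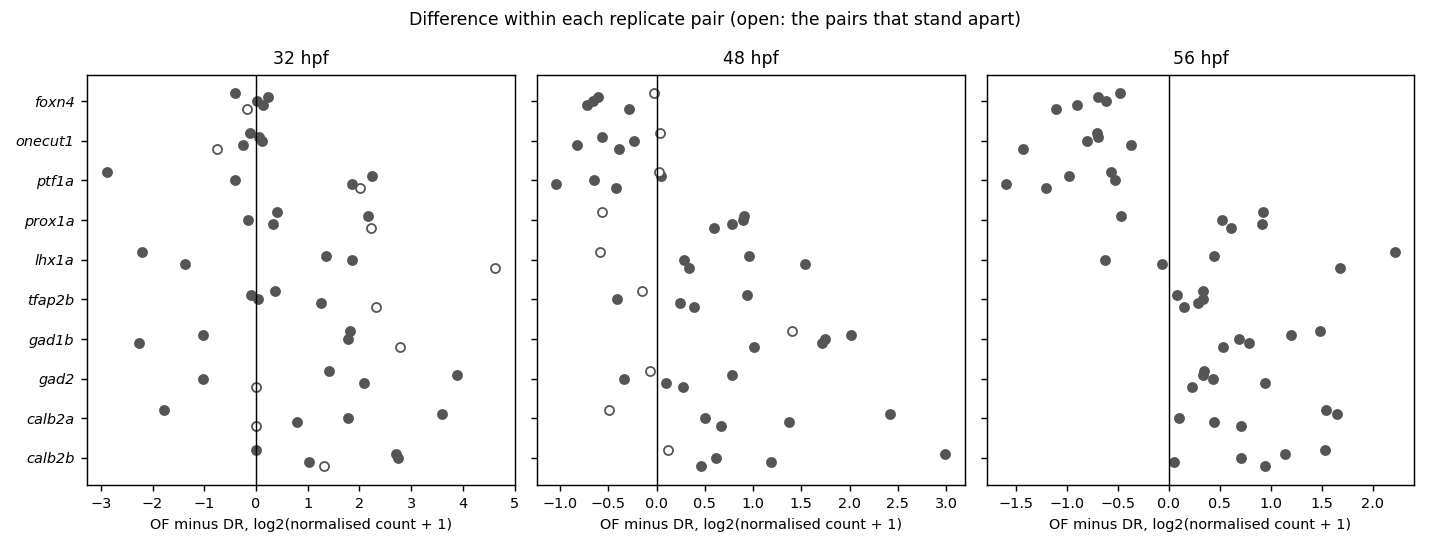
Difference of OF minus DR in log2(normalised count + 1) (horizontal axis) within each replicate pair, for each gene at 32, 48 and 56 hpf; each point is 1 pair and open points are the pairs that stand apart (replicate 1 at 32 hpf, replicate 5 at 48 hpf). At 56 hpf all 5 points of foxn4, onecut1 and ptf1a lie left of 0 and all 5 of tfap2b, gad1b, gad2, calb2a and calb2b lie right of it; the scales differ between panels.

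At 48 hpf foxn4 was lower in OF in 5 of 5 pairs, as were 4.49% of tested genes, and gad1b and calb2b were higher in OF in 5 of 5, as were 7.98%. These tallies include the replicate 5 pair, which goes against its labels. In the 4 other pairs foxn4 and onecut1 were lower in OF in 4 of 4, as were 10.5% of tested genes, and gad1b, calb2a, calb2b, prox1a and lhx1a were higher in 4 of 4, as were 19.3%. In the blocked fit on 13 pairs, foxn4 was lower in OF with a log2 difference of -0.57 (SE 0.12, limma adjusted p 0.0129), where 1.46% of tested genes were called lower; the call was kept in 1 of 4 fits that left out a pair, with limma adjusted p up to 0.103. onecut1 differed by -0.5 (SE 0.14, limma adjusted p 0.0506), and gad1b by 1.62 (SE 0.53, limma adjusted p 0.0929). In the fit on all 15 pairs, which holds the pair that goes against its labels, none of the 10 was called at 48 hpf, where 0.202% of tested genes were. At 32 and 56 hpf that fit called calb2b, and foxn4 and onecut1 (limma adjusted p 0.0358, 0.0031 and 0.00978), where 2.82% and 2.25% of tested genes were called. At 32 hpf the blocked fit on 13 pairs called calb2b higher in OF, by 1.62 (limma adjusted p 0.0309), where 2.81% of tested genes were called higher. That value rests on 1, 7, 6 and 0 reads in OF replicates 2 to 5 and on 0 reads in DR, and the call was kept in 2 of 4 fits that left out a pair.

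The difference between regions was not shown to change with time. For the change of the OF-DR difference at 48 and at 56 hpf, each set against 32 hpf, 0 of the 10 genes were called by limma, as against 0.00576% of tested genes in each. Unadjusted p-values under 0.05 numbered 0 and 1, and edgeR and DESeq2 called 0 of the 10. For these other rules the shares of all tested genes are not given, so the counts are a description. With the pair as a block, limma also called 0 of the 10 for both changes, where it called 0.0115% and 0.0403% of tested genes on 15 pairs and 0.403% for each change on 13 pairs. For foxn4 the change at 56 hpf was -0.72 (SE 0.34) and for onecut1 -0.61 (SE 0.35). On 13 pairs these changes were -0.75 (SE 0.16, limma adjusted p 0.0501) for foxn4 and -0.75 (SE 0.19, limma adjusted p 0.0976) for onecut1.

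Within groups, foxn4, onecut1 and ptf1a varied opposite to the other 7 genes at the later times. Over the 20 libraries of 48 and 56 hpf, deviations from the group mean of foxn4, onecut1 and ptf1a correlated positively with each other (r 0.56 to 0.85, Pearson). Each of their 21 combinations with the other 7 genes had a negative r, from -0.86 for foxn4 with calb2a to -0.06 for onecut1 with gad2. The 7 correlated positively among themselves in 21 of 21 combinations, from 0.11 to 0.96, and gad2 was the most weakly tied (0.11 to 0.26). Taken as OF minus DR within the 10 pairs of these times, 14 of the 21 were negative and 7 positive (-0.64 to 0.37, median -0.15). At 32 hpf 18 of the 21 combinations of the 3 with the 7 were positive, and over all 30 libraries 10 were positive and 11 negative. These libraries are not independent, because OF and DR of 1 number go together: at 48 hpf the replicate 4 and 5 pairs were low in calb2b and high in foxn4. The 20 libraries include the replicate 5 pair of 48 hpf, which goes against its labels, and no r without it is given. The split into 3 and 7 was made after the values were seen, and these correlations are given as a description.

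**Figure D4:**
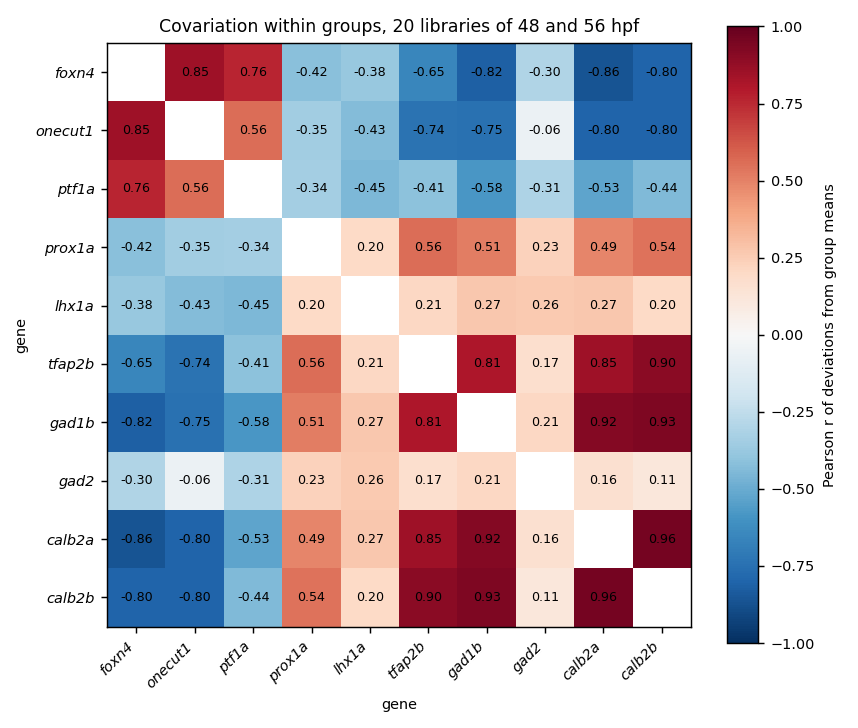
Pearson r between genes (rows and columns) of deviations from the group means in log2(normalised count + 1), over the 20 libraries of 48 and 56 hpf, with red for positive and blue for negative values. The block of foxn4, onecut1 and ptf1a is red within itself (0.56 to 0.85) and blue against the other 7 genes (-0.86 to -0.06). The replicate 5 pair of 48 hpf, which goes against its labels, is included.

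The genes with the most similar course over all 30 libraries mostly differed between the 10, among 11006 genes searched. The measure was Pearson r of log2(normalised count + 1); the points share pairs of libraries and the step between 32 hpf and the later times. foxn4 was closest to mex3b (r 0.953) and to the ganglion cell fate gene atoh7 (r 0.948). onecut1 was most like the cyclin gene ccna2 (r 0.935), haus4 (0.934) and the replication helicase gene mcm4 (0.931). ptf1a was most like the AP-2 gene tfap2d (r 0.952). tfap2b was most like its paralog tfap2c (r 0.987), and prox1a most like the LIM homeobox gene isl1 (r 0.987). Both shared tfap2c and rltpr among their 3 closest genes (for prox1a r 0.983 each, and rltpr r 0.986 for tfap2b). gad2 was closest to zgc:165603 (r 0.975), the T-box gene tbr1b (r 0.972) and the ganglion cell gene isl2a (r 0.97), and gad1b to raph1a (r 0.976). calb2b was most like rbfox1 (r 0.993), and calb2a like glrbb (r 0.988), which encodes a glycine receptor subunit. lhx1a had the loosest likeness, to phactr3b (r 0.914). Bipolar cell genes were also among the 3 closest: vsx1 for tfap2b (r 0.985), gnb3a for calb2b (r 0.989) and otx2 for ptf1a (r 0.906).

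Further genes of the same lineages were taken from 3 lists. Of their tested genes, 9 of 26 amacrine, 3 of 10 horizontal and 4 of 9 GABA and glycine genes reached 10 in at most 1 library of 32 hpf, so they passed the filter through later values and the counts are a description. For such genes the adjusted p-values of rises from 32 hpf are likewise a description and no support. Of 26 tested amacrine cell genes (32 listed), 22 rose and 1 fell in OF at 48 against 32 hpf, and 23 rose and 1 fell in DR, where 25.6% of all tested genes rose and 9.61% fell in OF, and 22.1% and 6.39% in DR. Their median log2 change was 3.82 in OF and 3.74 in DR, or 3.32 and 3.74 with genes at 0 set to their bound, beside 0.38 and 0.35 over all tested genes. neurod6a, whose mouse counterpart marks a subset of amacrine cells, had 0 reads in all 32 hpf libraries; at 48 hpf it had 65.5 to 137 in OF and 17.7 to 116 in DR. tfap2a, another AP-2 gene, averaged 3142 ± 1157 at 48 hpf against 43.55 ± 69.9 at 32 hpf in DR (SD, n = 5 each; log2 change 7.78, SE 0.72, limma adjusted p 2.2e-09). The gene that fell in both regions was the glycine transporter gene slc6a9, which averaged 417.5 ± 86.1 at 48 hpf and 884 ± 155 at 32 hpf in DR (log2 change -1.09, SE 0.22, limma adjusted p 3.0e-04).

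Of 10 tested horizontal cell genes (13 listed), 8 rose in OF and 7 in DR at 48 against 32 hpf, where 25.6% and 22.1% of all tested genes rose, and 0 fell. Their median log2 change was 2.76 in OF and 2.98 in DR, or 2.68 and 2.22 with genes at 0 set to their bound. cx52.9, a connexin gene of zebrafish horizontal cells, averaged 90.8 ± 29.0 at 48 hpf and 8.11 ± 7.37 at 32 hpf in OF (log2 change 3.86, SE 0.7, limma adjusted p 7.0e-05). cx52.6, a second such connexin gene, had 0 reads in all 32 hpf libraries and 0.857 to 51.3 in OF at 48 hpf. Unlike onecut1, the onecut gene onecutl rose. Its mean went from 58.4 at 32 hpf to 294 at 48 hpf in OF (log2 change 2.64, SE 0.46, limma adjusted p 4.5e-05). In DR it went from 29.2 to 205 (log2 change 3.05, SE 0.46, limma adjusted p 7.2e-06). isl1, which also belongs to the amacrine list and marks other retinal neurons, made up 59.7% of the summed mean level of the horizontal list in OF and 53.2% in DR at 32 hpf, and 83.2% to 86.8% in the groups of 48 and 56 hpf.

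Of 9 tested genes of GABA and glycine transmission (12 listed), 7 rose and 1 fell in each region at 48 against 32 hpf (25.6% and 9.61% of all tested genes in OF, 22.1% and 6.39% in DR), with median log2 changes of 4.17 in OF and 2.78 in DR (2.15 in DR with genes at 0 set to their bound). slc32a1, the vesicular transporter gene for both transmitters, averaged 568 ± 194 at 48 hpf and 9.90 ± 10.6 at 32 hpf in OF (log2 change 6.68, SE 0.72, limma adjusted p 3.1e-08). The gephyrin gene gphnb averaged 166 ± 92.1 at 48 hpf and 3.985 ± 5.34 at 32 hpf in OF (log2 change 5.53, SE 0.68, limma adjusted p 2.9e-07). The gene that fell was again slc6a9.

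Between regions, 1 gene of the amacrine list and 1 of the horizontal list were called in the fit without pairing, both at 32 hpf, where 1.14% of all tested genes were called. Genes of other cell types were also called higher in OF at 32 hpf: 3 of 15 ganglion cell genes (median log2 difference 1.11), 3 of 8 endothelial genes (2.63), 2 of 7 red blood cell genes (4.03) and 1 of 5 forebrain genes (0.79). Their part in the regional differences was not tested. ebf1a averaged 249 ± 91.65 in OF and 96.0 ± 53.8 in DR (SD, n = 5 each; log2 difference 1.42, SE 0.3, limma adjusted p 0.00982); without the replicate 1 pair it was 1.21 (limma adjusted p 0.0608), and with the block on 13 pairs, which also leaves that pair out, 1.21 (SE 0.15, limma adjusted p 4.6e-05). prox1b, the paralog of prox1a, had 10.5 to 117 in OF and 0 to 8.01 in DR (log2 difference 2.8, SE 0.65, limma adjusted p 0.0241); without the replicate 1 pair it was 1.79 (limma adjusted p 0.204). With the block on 13 pairs, isl1 was higher in OF at 32, 48 and 56 hpf, by 0.78, 0.77 and 0.73 (limma adjusted p 0.0151, 0.0185 and 0.0104), where 2.81%, 3.04% and 2.41% of tested genes were called higher. slc6a1b, a GABA transporter gene, was higher in OF at 48 and 56 hpf, by 1.78 and 1.76 (limma adjusted p 0.037 and 0.0191). The other list genes called in that fit were tfap2a, ebf1a, ebf3a, barhl2 and onecut3a at 32 hpf and meis2a at 48 hpf, all higher in OF, and the amacrine gene barhl1a at 56 hpf, which was lower in OF with a log2 difference of -0.76 (SE 0.19, limma adjusted p 0.0262).

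Genes of other cell types moved alongside, to be read against the 25.6% of all tested genes that rose and 9.61% that fell in OF at 48 against 32 hpf, and the 22.1% and 6.39% in DR. At 48 against 32 hpf, 13 of 15 tested ganglion cell genes rose in each region (median log2 change 3.37 in OF and 5.23 in DR). Of 17 photoreceptor genes, 16 rose in OF and 8 in DR (medians 5.02 and 2.87), and of 10 bipolar cell genes 7 rose in OF and 6 in DR (medians 2.31 and 1.57). Of these, 3 ganglion cell, 10 photoreceptor and 2 bipolar cell genes reached 10 in at most 1 library of 32 hpf. No difference between lists was tested. Of 17 retinal progenitor genes, 10 fell and 2 rose in OF at 48 against 32 hpf and 11 fell and 4 rose in DR, with median log2 changes of -0.91 and -0.75. At 56 hpf the summed level of this list was 126100 to 166400 in OF and 150500 to 197400 in DR, ranges that overlap. Over all libraries hmga1a made up 36.34% and fabp7a 29.04% of the summed mean level. For OF against DR at 56 hpf the fit without pairing called 0 of the 17 progenitor genes, where it called 0.253% of all tested genes. With the block on 13 pairs, 5 genes of the list were lower in OF at 56 hpf and 1 was higher, where 2.32% and 2.41% of all tested genes were. The 5 were ascl1a (-0.9), pcna (-0.87), ccnd1 (-0.68), notch1a (-0.57) and mki67 (-0.5), genes of neurogenesis and the cell cycle that are named here after their values were seen. The gene higher in OF was six3b, by 0.39 at 56 hpf (limma adjusted p 0.0265), and by 0.78 and 0.53 at 32 and 48 hpf in the same fit. The rest of the 17 were not called at 56 hpf. In that blocked fit foxn4 and onecut1 were also lower in OF at 56 hpf, and the part of the 5 genes in their regional difference was not tested. Photoreceptor genes differed in the other direction at 56 hpf, with 12 of 17 higher in OF in the same blocked fit. Without pairing, 4 of these 17 were called higher in OF. The forebrain, which also holds GABA neurons, was represented by 18 genes, of which 5 were tested. Their summed level at 56 hpf was 616 to 803 in OF and 246 to 692 in DR, led by foxg1a, which the retina also expresses. Of the 5 dlx genes listed, which mark GABA neurons of the forebrain, dlx5a reached 40.9 in DR and 9.53 in OF at 56 hpf, and dlx2a reached 20.8 in OF and 4.16 in DR at 56 hpf. dlx1a, dlx2b and dlx6a stayed at or below 12.5 in every library.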

How the data were processed

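Per the labels' protocols, RNA of the dissected tissue was extracted with a kit made for fixed tissue, and the library kit was one for small amounts of RNA. The deposited table holds 27731 genes in the unit signal: normalised read counts, which the authors scaled by 1 size factor per library. The submitters' processing notes name the build GRCz10 and the tools DESeq2, HTSeq, Picard, STAR 2.4.0 and Trim Galore with no roles; strand setting and annotation release are not given in the sources used here. Reads shared by close paralogs (calb2a and calb2b, gad1b and gad2) could be split between them. No coordinates or sequences are given.

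Genes with at least 10 in at least 5 libraries were tested (17360). limma 3.58.1 (trend, R 4.3.3) was run on log2(normalised count + 1) with 6 group means over all 30 libraries, two-sided, with Benjamini-Hochberg adjustment over the 17360 genes and calls at adjusted p under 0.05. Dividing each column by its smallest value gave whole reads (100.0% of values within 0.01 reads; for DR replicate 3 of 48 hpf this could not be checked, its smallest value being close to 1), on which edgeR 4.0.16 and DESeq2 1.42.0 were run as alternatives. The scripts were tested on simulated data. Depth was 4.49 M to 12.32 M reads; floors (3 reads per library) and exact binomial 95% intervals cover counting error only.

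Same-numbered OF and DR libraries of a time deviated together in 15 of 15 pairs (r 0.23 to 0.52, median 0.38; other numbers, median -0.1), and 30 of 30 libraries correlated best with their own number, so the pair was used as a block in alternatives. The fit on 13 pairs leaves out replicate 1 at 32 hpf and replicate 5 at 48 hpf, which were chosen from the values of these data. Other alternatives changed the pseudocount, filter, scaling, weights, groups fitted or left out libraries.

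The members and gene lists were chosen with earlier results of these data known. Named genes are the 10 members, per comparison at most 4 called genes with the smallest adjusted p of the amacrine, horizontal and GABA and glycine lists, and for each member up to 3 genes of highest Pearson r among tested genes with a mean of at least 50. Of the list genes, 188 matched by name, 1 by current symbol and 8 were not found.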

Additional observations from a re-analysis of the deposited data

Results flagged for a closer look

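In 6 of the 60 groups of 5 libraries, the highest or lowest library stood apart from the other 4 by more than Dixon's 95% critical value (0.71 of the range). Chance flags about 1 in 20 such groups if the values are independent and normal. The values here were normalised counts off the log scale, some near 0, so that rate need not hold. At 32 hpf, DR replicate 3 had the highest ptf1a (623.8, the others 6.41 to 127) and the highest prox1a (313.4, the others 13.6 to 96.95). DR replicate 2 had the highest gad1b at 32 hpf (3.802, the others 0 to 1.04), a matter of few reads. At 48 hpf, DR replicate 4 had the highest foxn4 (6027, the others 3231 to 3972) and DR replicate 2 the lowest lhx1a (26.0, the others 51.3 to 58.25). At 56 hpf, DR replicate 4 had the highest prox1a (2427, the others 1256 to 1535). All 6 lay in DR groups. The OF library of the same number was also highest in its group for ptf1a (470) and prox1a (282) at 32 hpf. So it was for foxn4 at 48 hpf (3960). For gad1b, for lhx1a and for prox1a at 56 hpf, the OF library did not stand at the same end of its group.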

How the results depend on the processing

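Of 96 gene results under 4188 alternative values, 0 reversed, 64 no longer passed and 26 newly passed. With the replicate block on all 15 pairs, 1, 0 and 2 of the 10 genes were called for OF against DR at 32, 48 and 56 hpf (calb2b; foxn4 and onecut1, limma adjusted p 0.0358, 0.0031 and 0.00978), and on 13 pairs 1, 1 and 2. Of all tested genes, the fit on 15 pairs called 2.82%, 0.202% and 2.25% at these times. The random block (correlation 0.43) and array weights each called 2 at 56 hpf, and DESeq2 called 1 at 32 hpf. For the random block, array weights and DESeq2 no shares of all tested genes are given here, so these counts are a description. The block changed no other call of the 10 genes for OF against DR, and none of theirs in the time comparisons in its random form. Leaving out single libraries without the block gave 0 of the 10 genes called for OF against DR at each time. Over all genes these fits called 134 to 292 at 32 hpf, 0 to 52 at 48 hpf and 21 to 68 at 56 hpf. Leaving out single pairs of the 13, added after the data were seen, gave 0 to 2 at 32 hpf, 0 to 1 at 48 hpf and 2 at 56 hpf. For the fits without single pairs no shares of all tested genes are given, so their counts are a description. Leaving out single libraries gave 9 to 10 for OF 48 against 32 hpf and 8 to 9 for DR 48 against 32 hpf. It gave 9 for OF 56 against 32 hpf and 9 to 10 for DR 56 against 32 hpf. Over all genes the same fits called 5049 to 7095 in OF and 4038 to 5478 in DR at 48 against 32 hpf. At 56 against 32 hpf they called 6419 to 8250 in OF and 5105 to 6825 in DR. gad1b, gad2, calb2a and calb2b passed the filter through their later values, so these counts are a description of them and no support.

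The ptf1a call in OF at 48 against 32 hpf was lost without any of 21 single libraries and with edgeR, DESeq2, TMM, no filter, pseudocount 0.5 or only the groups compared (limma adjusted p 0.142). Quantile scaling moved the median of all genes at 48 against 32 hpf to -0.16 in OF and -0.17 in DR, from 0.38 and 0.35, and the share of higher genes among those called to 47.2% and 54.2%, from 72.7% and 77.5%. Under it foxn4 in OF at 48 hpf (limma adjusted p 0.0626), foxn4 and onecut1 in DR at 56 hpf (0.13 and 0.0856), onecut1 in DR at 48 hpf (0.138) and lhx1a in DR at 48 and 56 hpf (0.0604 and 0.0559), each against 32 hpf, were lost; the cause was not tested.

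Counts over all genes for OF against DR ran from 39 to 650 at 32 hpf (198 as reported), 0 to 781 at 48 hpf (1) and 8 to 820 at 56 hpf (44). Over all genes, OF 56 against 48 hpf gave 3 to 10 calls (3 as reported), DR 56 against 48 hpf 1 to 4 (2), and the changes of the OF-DR difference 1 to 70 (1 each). At 32 hpf gad1b, gad2, calb2a and calb2b had few or no reads, so their levels there are known only roughly.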
